A study of Mus musculus with 6 samples.

Results

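The myeloid C-type lectin receptors described here are the products of 9 mouse genes, Clec7a, Clec4n, Clec4d, Clec4e, Clec5a, Clec12a, Clec4a2, Clec4a1 and Clec4a3, found in the deposited table of 55802 rows by matching Ensembl identifiers to gene symbols. All 9 were in the table. They were chosen by family and selected on their counts in CCl4 against control livers, so their values below describe that difference and do not test it. Liver messenger RNA was sequenced from wild-type C57BL/6 mice in 2 groups of 3 libraries, one given CCl4 (carbon tetrachloride, a hepatotoxin used to produce liver fibrosis in mice) and the other, the control, given oil. The sources used here give no dose, route, duration, sex or age. The labels do not tie the 3 libraries of either group to separate mice, so p-values measure only the spread between these libraries, which may be technical.

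C-type lectin receptors are membrane proteins of macrophages, monocytes, dendritic cells and neutrophils that bind sugars, lipids and products of dead cells. The activating members signal through an immunoreceptor tyrosine motif, either their own or that of a partner (the Fc receptor gamma chain, encoded by Fcer1g, or DAP12, encoded by Tyrobp), which recruits the kinase Syk and, through the adaptor Card9 with Bcl10 and Malt1, leads to NF-kB. The inhibitory members carry a motif that recruits phosphatases such as those encoded by Ptpn6 and Inpp5d.

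All 9 receptor genes had a higher mean level in CCl4 livers than in control livers, and Clec7a made up most of the difference. Summed over the 9 genes, the level was 108 ± 4.76 CPM (counts per 1000000, relative to the scaled library size) in CCl4 livers and 20.9 ± 1.9 CPM in control livers (SD, n = 3 each). Of the 9 genes, 8 had enough counts to enter the test, and 7 of those 8 passed it as higher at an adjusted p under 0.05 (edgeR's quasi-likelihood test with Benjamini-Hochberg adjustment over 15579 genes). The same test called 41.3% of all genes, 21.2% as higher and 20.1% as lower in CCl4 livers. In all 8, every CCl4 library lay above every control library, as in 27.6% of all genes tested. Nothing is read from these counts, since this contrast was used to choose the genes. The log2 fold changes of the 8 genes ran from 0.98 for Clec4a1 to 3.25 for Clec7a, with a median of 1.79, against a median over all genes of 0.000564. Clec4e did not pass the test, and Clec5a fell below the minimum count and was not tested.

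**Figure D1:**
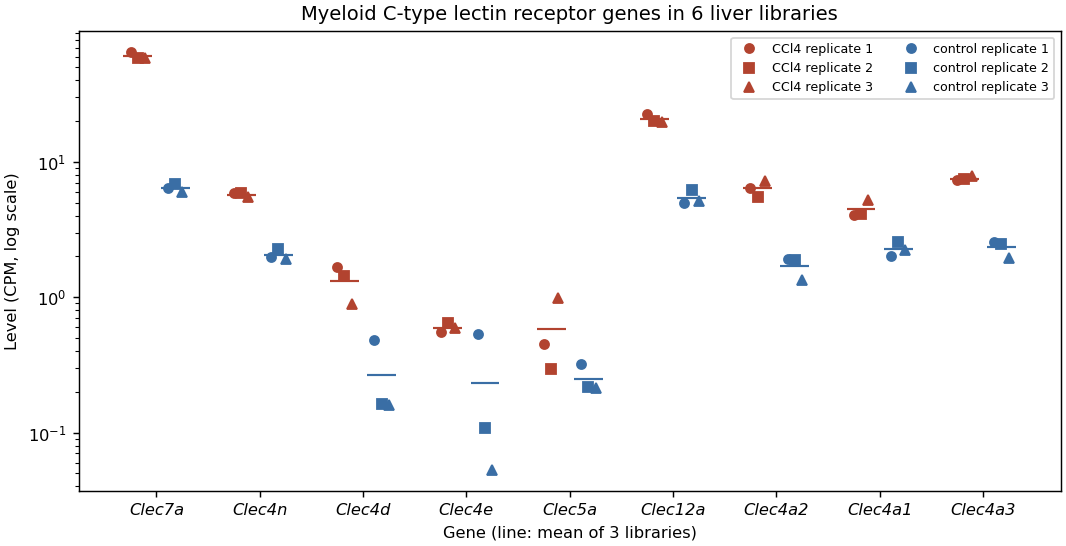
Level of each receptor gene in every library (y axis, CPM on a log scale), with CCl4 libraries left of control libraries, a marker shape for each replicate number and a line at the mean of 3 libraries. The CCl4 values of Clec7a sit near 60.8 CPM and its control values near 6.38 CPM, while the groups of Clec5a overlap.

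The libraries held 18929972 to 20042731 counts each. The first principal component, with 77.2% of the variance, separated the groups, and the second, with 8.7%, set CCl4 replicate 3 apart from the other CCl4 libraries. Without CCl4 replicate 3 the log2 fold changes of the 8 tested receptor genes ran from 0.86 to 3.28, and 7 were called. Albumin, encoded by Alb and the defining product of hepatocytes, was at 74000 ± 1660 CPM in CCl4 livers and 71800 ± 3610 CPM in control livers, and was not called (log2 fold change 0.04, adjusted p = 0.655). With library size alone as the scaling, it was called higher at 0.19. Of 6 tested hepatocyte markers, 1 was called higher and 2 lower, against 21.2% and 20.1% of all genes tested. The list's median log2 fold change was -0.23. Apob at -0.36 and Tat at -0.27 were called lower and Ttr at 0.24 higher, and Apoa1 at -0.37 and Hnf4a at -0.19 were not called. Of 12 macrophage and monocyte marker genes, 10 were called higher and 0 lower, and their summed level was 558 to 635 CPM in CCl4 livers and 192 to 224 CPM in control livers. Of 9 neutrophil markers, 6 were tested and all 6 were called higher, with sums of 30 to 33.8 CPM in CCl4 livers and 7.37 to 11 CPM in control livers. Ly6g, which defines neutrophils, had 4, 1 and 0 counts in CCl4 livers and 0 in each control liver. In whole liver, fewer or more cells of a type and less or more RNA per cell cannot be told apart, and the part of these cell types in the receptors' values was not tested.

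All 9 genes lie on chromosome 6. In the RefSeq gene order, Clec4a1, Clec4a3, Clec4a2, Clec4n, Clec4d and Clec4e stand in a run of 9 neighbouring lectin genes, and Clec12a and Clec7a stand at the ends of another run of 6. Promoter windows were available for 8 of the 9 genes, without Clec4n. Clec7a and Clec4a3 each had overlapping windows, those of Clec7a nearly the same sequence, so a match can be counted more than once. In the 250 bases before the start site, the letters GAGGAA on either strand, the core of the sequence bound by PU.1 (the myeloid transcription factor encoded by Spi1), occurred in 7 of the 8 genes (8 of their 10 windows) and in 23.3% of 32851 windows of all genes. The windows of Clec7a (the largest fold change), Clec12a (the second highest CPM), Clec4e (the gene that was not called) and Clec4a2 (the gene without the letters) are shown, 5′ to 3′ on the gene's strand, with GAGGAA or its reverse complement in capitals.
Clec7a: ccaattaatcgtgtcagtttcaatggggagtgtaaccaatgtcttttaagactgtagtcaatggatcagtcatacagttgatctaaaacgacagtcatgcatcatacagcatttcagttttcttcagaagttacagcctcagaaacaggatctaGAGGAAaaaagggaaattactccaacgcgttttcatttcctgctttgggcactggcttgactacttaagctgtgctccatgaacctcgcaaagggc
Clec12a: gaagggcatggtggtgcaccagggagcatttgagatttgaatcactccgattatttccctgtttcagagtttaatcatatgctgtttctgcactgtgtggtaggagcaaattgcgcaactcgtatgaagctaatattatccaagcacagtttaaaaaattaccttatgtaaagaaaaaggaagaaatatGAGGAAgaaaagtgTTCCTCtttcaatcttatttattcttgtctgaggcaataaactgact
Clec4e: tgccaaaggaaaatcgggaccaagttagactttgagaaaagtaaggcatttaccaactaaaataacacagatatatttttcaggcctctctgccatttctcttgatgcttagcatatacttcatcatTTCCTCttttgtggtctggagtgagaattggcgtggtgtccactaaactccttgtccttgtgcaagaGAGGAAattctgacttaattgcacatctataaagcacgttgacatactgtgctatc
Clec4a2: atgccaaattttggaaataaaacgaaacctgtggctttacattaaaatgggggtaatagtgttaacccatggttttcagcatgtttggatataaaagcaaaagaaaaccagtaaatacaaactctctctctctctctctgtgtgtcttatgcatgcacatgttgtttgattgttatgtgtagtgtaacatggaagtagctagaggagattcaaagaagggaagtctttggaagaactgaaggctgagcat
These are RefSeq sequences of build GRCm38.p6, at chr6:129472780-129473029 on the minus strand for Clec7a, chr6:129349994-129350243 on the plus strand for Clec12a, chr6:123289872-123290121 on the minus strand for Clec4e and chr6:123122440-123122689 on the plus strand for Clec4a2. In the window of Clec7a the match begins 96 bases before the start site. Clec12a has a match on each strand, beginning 61 and 47 bases before the start site, and Clec4e has them 123 and 56 bases before it. Spi1 itself was at 12.9 ± 0.837 CPM in CCl4 livers and 4.56 ± 0.553 CPM in control livers, with a log2 fold change of 1.5 (SE 0.12, adjusted p = 2.11e-05).

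Other letter patterns were rarer among the 8 genes. A composite of ETS and IRF elements, GGAA and GAAA with 2 bases between them, was found in Clec7a and Clec4a1. It was in 3 of the 10 windows of the 8 genes, against 2.3% of all windows. The overlapping windows of Clec7a held the same match. TGTGGT, a RUNX element, was in 5 of the 8 genes, or 6 of the 10 windows, against 14.0% of all windows. TTGCNNAA, a C/EBP element, was found in Clec12a and Clec4e, or 2 of the 10 windows, against 9.56% of all windows. TGANTCA, an AP-1 element, was in Clec12a, or 1 of the 10 windows, against 6.75%. The longer PU.1 pattern GAGGAAGT, which contains GAGGAA, was in none of the 8 genes and in 2.44% of all windows. A match of letters is a description of the sequence and not a bound site.

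Clec7a encodes Dectin-1, the receptor for fungal beta-glucans, which carries its own activating motif. It was counted 1284, 1191 and 1194 times in the CCl4 libraries, or 64.7, 58.9 and 58.7 CPM, against 120, 126 and 112 times in the control libraries, or 6.39, 6.81 and 5.94 CPM. The lowest CCl4 library was far above the highest control library. The means were 60.8 ± 3.43 CPM in CCl4 livers and 6.38 ± 0.436 CPM in control livers (SD, n = 3 each), a ratio of 9.53 and a log2 fold change of 3.25 (SE 0.08). By size of rise this placed Clec7a at rank 127 of 15579 genes, 1.05% of which had a log2 fold change above 3. The spread among the CCl4 libraries was 5.64% of their mean, where counting error alone would give 2.86%, and among the control libraries it was 6.83%, where counting error alone would give 9.15%.

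The 3 receptors of the Dectin-2 group pair with the Fc receptor gamma chain. Clec4n encodes Dectin-2, which binds fungal mannans, and it had 5.85, 5.84 and 5.5 CPM in CCl4 livers, against 1.97, 2.27 and 1.91 CPM in control livers. These values came from 112 to 118 counts in CCl4 libraries and 36 to 42 counts in control libraries, and the groups did not overlap. The log2 fold change of Clec4n was 1.48 (SE 0.15).

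Clec4d encodes MCL, a receptor for mycobacterial glycolipid that forms pairs with Mincle. It was scarce, with 33, 29 and 18 counts in the CCl4 libraries, against 9, 3 and 3 in the control libraries. CCl4 replicate 3 was the lowest of its group and control replicate 1 the highest of its own, and the groups still did not overlap. The ratio of the summed counts, scaled for library size, was 4.96 with a 95% interval of 2.83 to 9.27 that covers counting error only. The fitted log2 fold change was 2.28 (SE 0.45), and 2.99 without control replicate 1.

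Clec4e encodes Mincle, which binds the same mycobacterial glycolipid and the nuclear protein SAP130 released by dead cells. Its counts were 11, 13 and 12 in the CCl4 libraries, against 10, 2 and 1 in the control libraries. Control replicate 1 was close to the CCl4 libraries, and the other control libraries were far below them. The ratio of summed counts was 2.57, with a counting interval of 1.33 to 5.29, and the log2 fold change was 1.34 (SE 0.60), which was not called. The spread among control libraries was 113% of their mean, where counting error alone would give 48.0%. Without control replicate 1 the log2 fold change was 2.79 and the gene was called, as it was with limma-voom at 1.77.

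Clec5a encodes MDL-1, which signals through DAP12. It had 9, 6 and 20 counts in the CCl4 libraries, against 6, 4 and 4 in the control libraries. CCl4 replicate 3 held most of the CCl4 counts, and CCl4 replicate 2 equalled the highest control library in counts. The ratio of summed counts was 2.32, with a counting interval of 1.22 to 4.68. In the fit that kept all genes with a count, its log2 fold change was 1.18 (SE 0.53), with no call.

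Clec12a encodes MICL, an inhibitory receptor that binds uric acid crystals from dead cells. It had 22.4, 20.2 and 19.7 CPM in CCl4 livers, from 445, 409 and 402 counts, against 5, 6.21 and 5.14 CPM in control livers, from 94, 115 and 97 counts. The 2 groups were well apart, with little spread within either. The log2 fold change was 1.93 (SE 0.11), a ratio of means of 3.81.

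Clec4a2 encodes DCIR, the dendritic cell immunoreceptor, which carries an inhibitory motif. Its levels were 6.45, 5.54 and 7.17 CPM in CCl4 livers, against 1.92, 1.89 and 1.33 CPM in control livers, with a log2 fold change of 1.90 (SE 0.19). The groups did not overlap. Of its 50-base stretches in the GENCODE M21 transcripts, 6.15% also occur in Clec4a4 or Clec4b1, so a small share of its counts could belong to those neighbours or the reverse. For the other 8 receptor genes that share was 0%.

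Clec4a1 and Clec4a3 encode close relatives of DCIR. Clec4a3 had 7.36, 7.42 and 7.81 CPM in CCl4 livers, against 2.56, 2.49 and 1.96 CPM in control livers, a log2 fold change of 1.69 (SE 0.15). Clec4a1 had 4.08, 4.15 and 5.21 CPM in CCl4 livers, against 2.02, 2.54 and 2.23 CPM in control livers, a log2 fold change of 0.98 (SE 0.18). Neither gene's groups overlapped, and Clec4a1 had the smallest log2 fold change of the 8 tested receptor genes.

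Per kilobase of exon, Clec7a was the most abundant of the 9 in both groups. In CCl4 livers its level was 23.0 ± 1.3 CPM per kb, followed by Clec4a3 at 5.67 ± 0.185, Clec4n at 4.04 ± 0.138 and Clec12a at 3.76 ± 0.259 CPM per kb. Clec4n and Clec12a did not differ beyond their spread in CCl4 livers. Lower levels there were those of Clec4a1 at 2.88 ± 0.404, Clec4a2 at 2.18 ± 0.28 and Clec4d at 0.832 ± 0.25 CPM per kb. Clec5a at 0.151 ± 0.0935 and Clec4e at 0.12 ± 0.00898 CPM per kb were lowest in CCl4 livers and did not differ beyond their spread. In control livers Clec7a was at 2.42 ± 0.165 CPM per kb. Below it there, Clec4a3 at 1.76 ± 0.245, Clec4a1 at 1.45 ± 0.167 and Clec4n at 1.44 ± 0.136 CPM per kb did not differ beyond their spread. Exon lengths are from GENCODE M21, which may not be the annotation behind the counts. On the same scale the Kupffer cell lectin Clec4f was at 41.3 CPM per kb in CCl4 livers and 40.1 CPM per kb in control livers, above Clec7a in both.

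The make-up of the group differed between the livers. Clec7a held 56.1 ± 0.995% of the 9 genes' counts in CCl4 livers and 30.5 ± 0.753% in control livers. Clec12a held 19.2 ± 0.622% in CCl4 livers and 26.1 ± 2.11% in control livers, and Clec4a1 4.15 ± 0.664% in CCl4 livers and 10.8 ± 1.15% in control livers. The shares of Clec4a3 were 6.97 ± 0.44% in CCl4 livers and 11.1 ± 0.861% in control livers, and those of Clec4n 5.3 ± 0.249% in CCl4 livers and 9.79 ± 0.432% in control livers. Clec4d, Clec4e and Clec5a together stayed a minor part of the counts in every library. A share of one gene lowers the others', so these shares are not independent of each other.

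**Figure D2:**
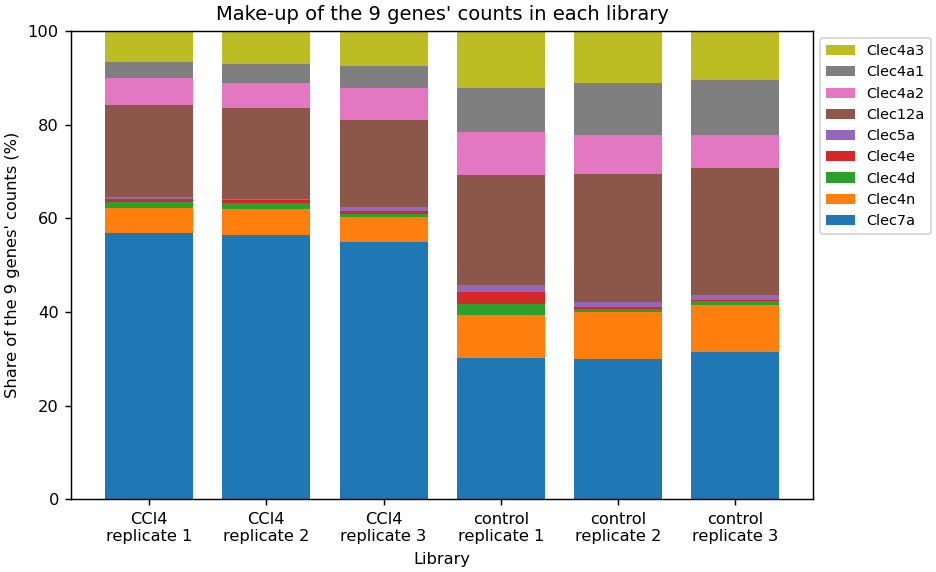
Share of the 9 genes' summed counts taken by each gene (y axis, percent) in each library (x axis, CCl4 libraries left of control libraries). The Clec7a segment averages 56.1% in CCl4 libraries and 30.5% in control libraries.

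The receptor genes were also set against the mean log2 CPM of the 12 macrophage and monocyte markers in the same library, which was 4.32, 4.29 and 4.30 in CCl4 livers and 2.99, 2.84 and 2.75 in control livers. Relative to that mean, Clec7a stood at 1.69, 1.59 and 1.58 log2 units in CCl4 livers, against -0.29, -0.05 and -0.16 in control livers, a shift of 1.79. Clec12a stood at 0.17, 0.06 and 0.01 in CCl4 livers, against -0.64, -0.18 and -0.36 in control livers, a shift of 0.47. In both genes every CCl4 library remained above every control library on this relative scale, as it did for Clec4a2 with a shift of 0.40 and Clec4a3 with a shift of 0.21. Clec4n averaged -1.76 in both groups, a shift of 0.00. Clec4a1 averaged -2.12 ± 0.20 in CCl4 livers and -1.62 ± 0.25 in control livers, a shift of -0.49. The groups of Clec4n, Clec4a1, Clec4d, Clec4e and Clec5a overlapped on this scale. The choice of these 9 genes used the same contrast, so the shifts are given with no test.

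**Figure D3:**
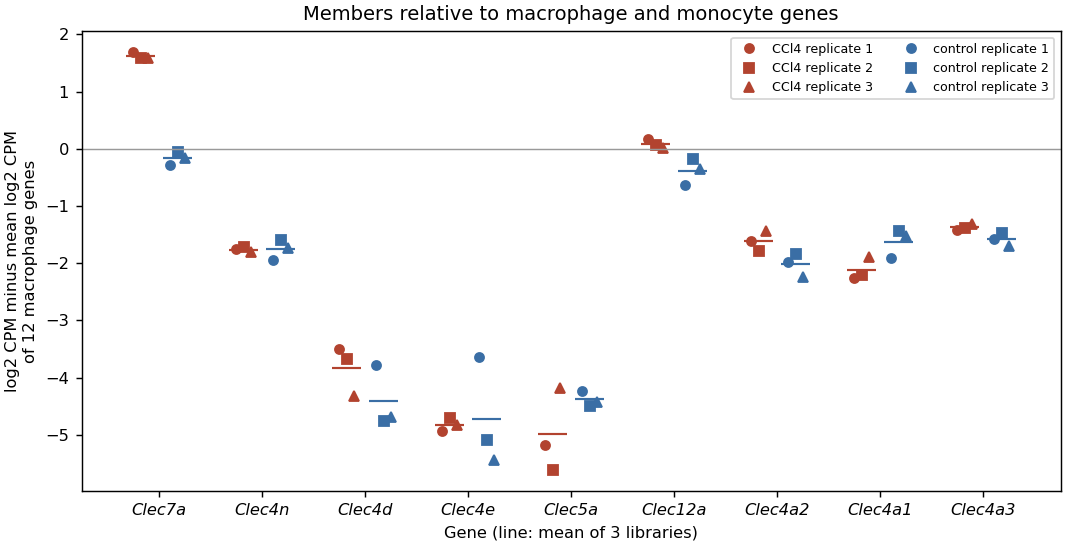
Log2 CPM of each receptor gene minus the mean log2 CPM of 12 macrophage and monocyte genes in the same library (y axis), with CCl4 libraries left of control libraries and a line at the mean of 3. Clec7a averages 1.62 in CCl4 livers and -0.17 in control livers, whereas Clec4n averages -1.76 in both.

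Among the neighbours of these genes on chromosome 6, values were mixed. Clec4b1, in the same run as Clec4a2, had 18, 12 and 18 counts in CCl4 libraries, against 5, 5 and 6 in control libraries, and was called higher at a log2 fold change of 1.46 (adjusted p = 0.00827), a call that DESeq2 did not make. Clec4a4 had 2 counts in each CCl4 library and at most 1 in a control library, and Clec4b2 had 0 in all 6. Between Clec12a and Clec7a, Clec1b, the CLEC-2 receptor of platelets and myeloid cells, had 15.3 ± 2.1 CPM in CCl4 livers and 8.37 ± 0.752 CPM in control livers (log2 fold change 0.87, adjusted p = 0.000479). Clec1a did not pass the test at 0.28 (adjusted p = 0.291), and Clec12b had at most 4 counts in a library. Clec9a, the dead-cell receptor of cross-presenting dendritic cells, was called at 0.48 (adjusted p = 0.047), a call lost with DESeq2, with limma-voom and without several of the libraries.

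The signalling partners of the receptors were higher as well. Of 19 genes listed as activators of this pathway, 15 were called higher, 0 lower and 4 were not called, with a median log2 fold change of 0.99. For this list and each list below, the share over all genes tested was 21.2% called higher and 20.1% called lower. Fcer1g, the partner chain of Clec4n, Clec4d and Clec4e, had 22.5, 19.7 and 21.4 CPM in CCl4 livers, against 7.56, 8.05 and 7.21 CPM in control livers, a log2 fold change of 1.48 (SE 0.09, adjusted p = 6.04e-06). Tyrobp, the partner of Clec5a, had 26.1, 23.8 and 23.1 CPM in CCl4 livers, against 6.49, 9.13 and 6.57 CPM in control livers, with 1.72 (SE 0.13, adjusted p = 1.72e-05). For both adaptors the groups were far apart. Syk, the kinase that Clec7a and the paired receptors recruit, rose to 21.1 ± 2.01 CPM in CCl4 livers, against 7.91 ± 0.424 CPM in control livers (log2 fold change 1.42, adjusted p = 1.05e-05). Card9 rose to 2.55 ± 0.252 CPM in CCl4 livers, against 0.838 ± 0.248 CPM in control livers, by 1.60 on the log2 scale (adjusted p = 0.000981). The kinase genes Src at 2.03 and Prkcd at 0.80, and the adaptor gene Lcp2 at 0.72, also rose.

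The genes of the complex that Card9 forms did not pass the test. Bcl10 had a log2 fold change of 0.20 (adjusted p = 0.102) and Malt1, the protease of the complex, one of -0.22 (adjusted p = 0.0767). Lyn, a kinase upstream of Syk, was at 0.16 (adjusted p = 0.0701). Bcl10 and Lyn were called higher with upper quartile scaling and with library size alone, Lyn also without control replicate 2, and Malt1 was called lower without control replicate 3. The difference between Card9 and its partners was not tested.

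Genes listed as inhibitors of the pathway went both ways, and the part of each in restraining these receptors was not tested. Of 7 tested of 8 listed, 4 were called higher and 3 lower, against 21.2% and 20.1% of all genes tested. Ptpn6, the phosphatase bound by inhibitory receptors such as Clec12a and Clec4a2, had 29.2 ± 1.44 CPM in CCl4 livers and 20.2 ± 1.88 CPM in control livers (log2 fold change 0.54, adjusted p = 0.000789). Inpp5d, a lipid phosphatase of myeloid cells, had 16 ± 1.2 CPM in CCl4 livers and 6.34 ± 0.677 CPM in control livers (1.34, adjusted p = 2.61e-05). Dok3 and Tnfaip3 were also higher, at 0.77 and 1.00. Cblb, a ubiquitin ligase that targets receptors of this group and Syk, fell by 0.41 on the log2 scale (adjusted p = 0.00455). Ptpn11 and Nfkbia were called lower at -0.24 and -0.22, calls that were lost with upper quartile scaling and with library size alone. The call of Nfkbia was also lost with DESeq2, without CCl4 replicate 2 and without control replicate 1.

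Of 9 transcription factor genes of the NF-kB, NFAT and IRF families, 1 was called higher, Relb, with 4.85 ± 0.273 CPM in CCl4 livers and 2.47 ± 0.253 CPM in control livers (log2 fold change 0.97, adjusted p = 0.000935). The other 8 were not called, and the list's median was 0.03. Over all genes tested, 21.2% were called higher. The count of 1 became 4 with upper quartile scaling or library size alone, 3 without control replicate 1 and 2 without CCl4 replicate 2. Activity of these factors depends in part on their location in the cell, which messenger RNA does not measure, and it was not tested.

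Of 18 genes that respond to these receptors in cultured myeloid cells, 6 were abundant enough to test. Ccl3, a chemokine gene, had 20, 16 and 28 counts in CCl4 libraries, against 4, 7 and 5 in control libraries (log2 fold change 1.87, adjusted p = 0.00315). Il1a, Egr2 and Nlrp3 were called at 0.43, 1.56 and 0.75, and each of these calls was lost without at least 1 library. The count of 4 called became 2 without CCl4 replicate 2 or CCl4 replicate 3, and 1 without control replicate 2 or control replicate 3. Il1b had 2.17, 2.42 and 3.44 CPM in CCl4 livers, against 3.73, 1.51 and 3.23 CPM in control livers, with overlapping groups and an adjusted p of 0.872. Il6 had at most 1 count in a CCl4 library and at most 3 in a control library. Tnf had 10, 8 and 13 counts in CCl4 libraries, against 5, 3 and 4 in control libraries, and was not tested.

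Proteins named as endogenous ligands of the receptors were also examined. Of 7 genes, 3 were called higher and 2 lower, against 21.2% and 20.1% of all genes tested. Anxa5, an annexin on dying cells that binds Dectin-1, had 147 ± 12.9 CPM in CCl4 livers and 84.4 ± 6.59 CPM in control livers (log2 fold change 0.80, adjusted p = 7.29e-05). Anxa1 had 15.4 ± 3.75 CPM in CCl4 livers and 4.43 ± 0.0504 CPM in control livers (1.80, adjusted p = 9.71e-05). Vim, which encodes vimentin, was higher by 1.60. Sap130, the ligand of Clec4e, had 21.9 ± 1.72 CPM in CCl4 livers and 29.2 ± 1.41 CPM in control livers (-0.42, adjusted p = 0.00205). Lgals9, a Dectin-1 ligand, was called lower at -0.24, a call lost with upper quartile scaling and library size alone.

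**Figure D4:**
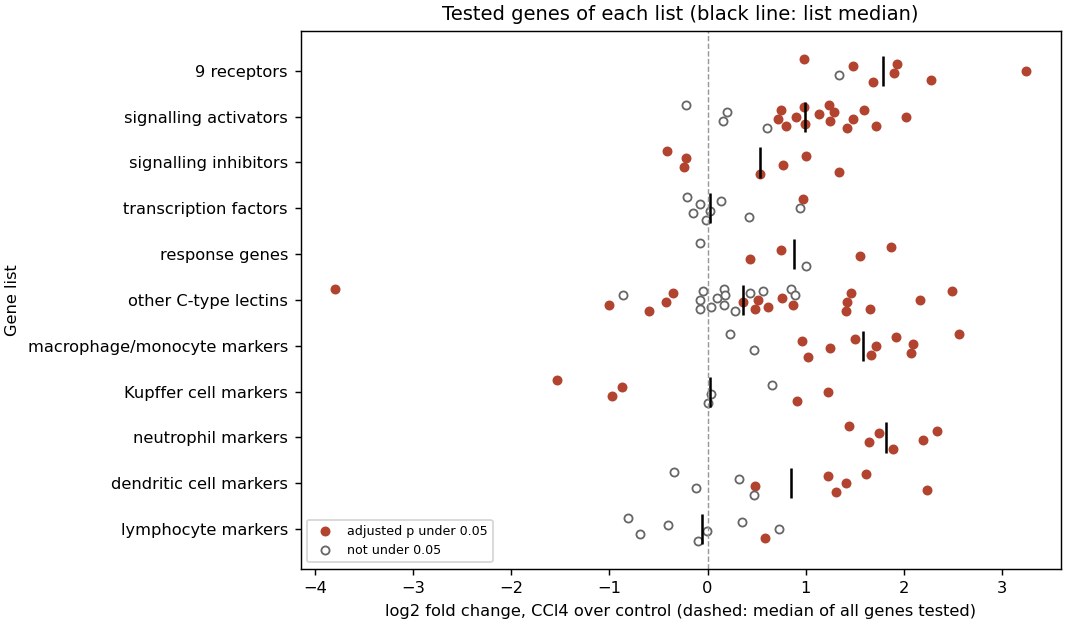
Log2 fold change, CCl4 over control (x axis), of each tested gene in the 9 receptors and 10 other gene lists (y axis), with filled points for genes at an adjusted p under 0.05, open points for the rest and a black line at each list's median. The 8 tested receptor genes have a median of 1.79, the activators 0.99 and the transcription factors 0.03.

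Other membrane C-type lectins went both ways. Of 50 listed, 31 were tested, of which 12 were called higher, 5 lower and 14 not called, with a median log2 fold change of 0.36. Over all genes tested, 21.2% were called higher and 20.1% lower. Cd207, which encodes langerin, had 7.16, 6.78 and 10.8 CPM in CCl4 livers, against 1.65, 1.46 and 1.27 CPM in control livers (2.49, adjusted p = 4.49e-05). Cd93 was higher at 1.66. Clec2h had 1.97, 1.88 and 2.55 CPM in CCl4 livers, against 25.5, 18.8 and 44.9 CPM in control livers, and fell by 3.80 on the log2 scale (adjusted p = 0.00173). Colec12, a scavenger receptor gene, and Asgr2, a subunit of the hepatocyte asialoglycoprotein receptor, were lower at -0.60 and -0.42. Clec4f, the lectin of resident Kupffer cells, had 102 ± 11.1 CPM in CCl4 livers and 99.1 ± 8.89 CPM in control livers, a log2 fold change of 0.04 (adjusted p = 0.76) that turned to -0.03 without CCl4 replicate 3 and to -0.01 without control replicate 3.

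Markers of the cells that carry these receptors were read beside them. The share over all genes tested was again 21.2% called higher and 20.1% called lower. Of the macrophage and monocyte markers, Cd68 rose by 1.92 on the log2 scale, Lyz2 by 2.10, Adgre1 by 1.25, Csf1r by 0.96 and Itgam by 2.57. Clec7a, at 3.25, was above each of these. Of 8 Kupffer cell markers, 2 were called higher, 3 lower and 3 not called, and their summed level was 476 to 567 CPM in CCl4 livers and 521 to 666 CPM in control livers. The direction of the difference in that sum was set by C6, at 107 ± 26.5 CPM in CCl4 livers and 310 ± 46.1 CPM in control livers. Without C6 the summed level of the other 7 was 400 to 450 CPM in CCl4 livers and 244 to 303 CPM in control livers. Among these 8, Cd5l was higher at 1.23, and Timd4 and C6 were lower at -0.97 and -1.54. Of 10 dendritic cell markers, 6 were called higher and 0 lower, with Itgax at 2.24 and Irf8 at 1.23, and Xcr1 at 0.32, Batf3 at 0.47, Zbtb46 at -0.12 and Ccr7 at -0.34 were not called. The count of 6 became 3 with DESeq2, 4 with limma-voom, 4 of 6 tested with the stricter filter, and 3 or 4 when any 1 of the libraries was left out. The calls that went were among those of Flt3, Clec9a and Cd209a. Of the neutrophil markers, Csf3r rose by 1.44, S100a8 by 1.75 and Retnlg by 2.34. Of 8 tested lymphocyte markers, 1 was called higher, Cd79a at 0.59, a call lost without any 1 of the libraries. Their part in the receptors' levels was not tested.

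Among the 5 genes outside the group whose levels followed the mean course of the 8 tested receptor genes most closely across the 6 libraries were Arhgap10, Cyth4, Col6a1 and Fkbp10. Likeness was measured as the root mean square difference of log2 CPM centred on each gene's mean, which was 0.06 for Arhgap10, 0.079 for Cyth4, 0.081 for Col6a1 and 0.096 for Fkbp10. Arhgap10 had 6.54 ± 0.178 CPM in CCl4 livers and 1.83 ± 0.455 CPM in control livers. Of the receptors themselves, Clec4a3 at 0.104 and Clec4a2 at 0.134 were nearest to the mean course, and Clec7a at 0.727 was farthest from it. Over 6 libraries of 2 groups, many genes share such a course.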

How the data were processed

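Liver messenger RNA of 6 libraries (3 CCl4, 3 control) was analysed from the authors' deposited table of raw, whole-number read counts per gene, with library totals of 18929972 to 20042731. Per the series' design text, reads were trimmed, filtered and aligned with HISAT2, and per the submitters' processing notes they were counted with featureCounts. The sources used here do not give versions, genome build, annotation, strand setting or the handling of multiply matching reads, so reads of overlapping or near-identical genes may be split or lost. No molecular identifiers are mentioned, and counting intervals cover counting error only.

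Of 55359 Ensembl identifiers, 52083 received a symbol from GENCODE M21. Rows without an Ensembl identifier held 0.543 to 0.679% of the counts and were kept, and library sizes were summed over the genes tested. The test was that of edgeR 4.0.16 in R 4.3.3 (filterByExpr, TMM scaling, glmQLFit with robust estimation, glmQLFTest, group as the single term, Benjamini-Hochberg adjustment over 15579 genes), and the procedure was checked on simulated data. CPM values use the TMM-scaled library size, and log2 fold changes are CCl4 over control. Intervals of count ratios are at 95%. No pair of replicates was as close as sampling noise alone would make it (chi-square of 5.19 to 23 per gene).

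The receptor genes, the gene lists and the tests were chosen with earlier results of these data known. Named genes were the 9 receptors, 13 others fixed by name (Fcer1g, Tyrobp, Syk, Card9, Ptpn6, Inpp5d, Spi1, Adgre1, Cd68, Csf1r, Clec4f, Csf3r and Alb), from each list the called genes of smallest adjusted p, highest CPM and largest and smallest change, and the 5 nearest courses, of which 1 is not reported here. Neighbouring lectins and the other genes given values were named after their values were seen. Of 7 hepatocyte markers, 6 were found by symbol, with 1 called higher and 2 lower. Alternatives were RLE, upper quartile and library-size scaling, no filter and a stricter one (a mean of 1 CPM, and 10 counts in 3 libraries), DESeq2 1.42.0, limma-voom (limma 3.58.1), a replicate block, and leaving out each library.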

Additional observations from a re-analysis of the deposited data

How the results depend on the processing

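The 8 tested receptor genes kept a higher level in CCl4 livers in every alternative that tested them (Clec4d and Clec4e did not pass the stricter filter), and 104 of their 110 alternative log2 fold changes moved by less than 1 SD. Clec5a had a value with no filter alone. The others were Clec7a at 3.40, Clec4n at 1.63, Clec12a at 2.08 and Clec4a3 at 1.83 with library size alone, which moved the median of all genes to 0.147, and Clec4d at 2.99 and Clec4e at 2.79 without control replicate 1. Of the 8 tested, 7 were called except with limma-voom and without control replicate 1 (8 each) and with the stricter filter (6 of 6 tested). Over all genes, 3303 were called higher and 3124 lower, against 4103 and 2177 with upper quartile scaling and 4824 and 1676 with library size alone. Transcription factors called higher, 1 in the main analysis, were 4 with upper quartile scaling, 4 with library size alone and 3 with no filter. They were 2 with limma-voom and 2 with the replicate block, and 1 to 3 when a library was left out. In the main analysis 0 were called lower. With no filter 1 was, Irf1 at -0.22, and without control replicate 3 there were 2, Rela at -0.24 and Irf1 at -0.3. Called response genes, 4 in the main analysis, were 2 with the stricter filter and 2 with DESeq2, and 1 to 4 when a library was left out. Clec4f ranged from -0.03 to 0.12 when a library was left out. For the other named genes outside the receptors, 625 values kept direction and call, 31 lost the call and 1 gained it. The cause was not tested. Same-numbered libraries did not deviate together (correlations of 0.05, 0.00 and 0.06), so the numbers were not taken to pair them. The replicate block called 3298 genes higher and 3118 lower, and 7 receptors. Counts under 40 in every library limit Clec4d, Clec4e and Clec5a. Control counts were also under 40 for Clec4a2 (36, 35 and 25) and in some control libraries for Clec4n, Clec4a1 and Clec4a3.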

Other observations

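Control replicate 1 held more counts than the other control libraries for several genes besides Clec4d and Clec4e, an observation made after the values were seen. Cxcl1, a neutrophil chemokine gene, had 1188, 845 and 155 counts in CCl4 libraries, against 671, 228 and 116 in control libraries, and was not called (ratio of means 2.02, adjusted p = 0.494). Cxcl2 had 3, 7 and 8 counts in CCl4 libraries, against 14, 4 and 6 in control libraries. Mgl2, a galactose-binding lectin gene of macrophages and dendritic cells, had 6, 4 and 10 counts in CCl4 libraries, against 18, 5 and 4 in control libraries. Tnfaip3 had 150, 151 and 187 counts in CCl4 libraries, against 105, 60 and 61 in control libraries. Clec7a did not share this course, with 120 counts in control replicate 1 and 126 and 112 in the others. Olr1, the lectin-like receptor for oxidised lipoprotein, separated CCl4 replicate 3 from its group, with 13, 15 and 1 counts in CCl4 libraries, against 6, 3 and 1 in control libraries.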
